A study of Homo sapiens with 16 samples.

Results

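This report is about the genes of voltage-gated ion channels and their relatives in A673 cells after loss of EWS-FLI1. The members were chosen by gene symbol: all probe sets annotated to exactly 1 symbol starting with KCN (potassium channels) or CACN (voltage-gated calcium channels), or made of SCN, a number and A or B (voltage-gated sodium channels). This gave 142 probe sets of 97 genes, of 11963 genes with 1 symbol on the array, and each gene was represented by its brightest probe set, by mean over the 16 arrays. The name voltage-gated is wider than the genes: the rule also takes in 12 inward rectifiers (KCNJ), 9 2-pore-domain channels (KCNK), 4 calcium-activated channels, 13 auxiliary potassium channel subunits and 2 RNA genes of the KCNQ1 locus, most of which do not sense voltage themselves.

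A673 is an established Ewing sarcoma line driven by EWS-FLI1, a fusion of EWSR1 with the ETS transcription factor FLI1. All 16 samples came from 1 clone, Asp14, which carries a doxycycline-inducible construct for knockdown of the fusion and was grown under zeocin and blasticidin selection. The controls are 4 arrays labelled 0 h. Treated cells had 1 ug/ml doxycycline for 18 h or 36 h, with 3 arrays each, or for 53 h, 72 h or 96 h, with 2 arrays each. Since no untreated cells of a later time were analysed here, hours in culture, doxycycline and loss of the fusion cannot be told apart. The labels do not call the replicates separate cultures. P-values here therefore measure the spread among these arrays alone, which may be only technical.

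FLI1, which checks the knockdown, had a log2 change of -3.20 ± 0.14 by 18 h (SE, limma adjusted p = 5.0e-08) and of -3.35 ± 0.16 by 96 h (adjusted p = 2.1e-09). The upper quartile of the arrays lay between 8.079 and 8.175 (log2), and ACTB, a gauge of RNA quality, read 1.47 to 2.45 more with its 3' than with its 5' probe set. The Ewing sarcoma markers CD99, NKX2-2, PRKCB and STEAP1 were at or above log2 4 on all 16 arrays, and CCK was below it on each. Of the neuronal markers, GAP43, SYT1 and TUBB3 were at or above log2 4 on all 16 arrays and SNAP25 on 15, while STMN2 and SYP reached at most 2.45 and 2.77. The 4 blood, 6 epithelial and 6 muscle markers on the array were below log2 4 throughout, as were 4 of 5 endothelial ones (KDR read 3.44 to 8.64). The mean over the 5 Ewing sarcoma markers lay between 9.47 and 9.85 at 0 h and between 7.42 and 7.47 at 96 h, and that over the 6 neuronal ones between 6.45 and 6.52 and between 6.80 and 6.91. Of the neuronal markers only GAP43 rose at 96 h (log2 change 4.72), and SNAP25 (-1.02), SYT1 (-1.04) and TUBB3 (-0.32) fell. Their part in the channel results was not tested, and in such bulk RNA fewer cells expressing a gene and less of its RNA per cell cannot be told apart.

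Ion channels are membrane proteins that let selected ions pass when voltage, calcium or another signal opens their pore. Potassium channels pull the membrane potential down and so oppose calcium and sodium channels, which depolarise the cell, and calcium entry through voltage-gated channels also acts as an intracellular signal. Pore-forming subunits are joined by auxiliary ones that set their trafficking, voltage range and speed. Calcium-activated potassium channels of the SK, IK and BK types tie the membrane potential to intracellular calcium, in excitable cells and in many that do not fire.

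Most of these genes were dim throughout. A gene was tested if it reached a log2 value of 4 on at least 2 arrays, and 12 of the 97 did: the voltage-gated potassium channel subunits KCNS3 and KCNG1, the calcium-activated channels KCNN1, KCNN4 and KCNMA1, the auxiliary potassium channel subunits KCNMB4, KCNE4 and KCNAB1, the calcium channel pores CACNA1G and CACNA1A, and the calcium channel beta subunits CACNB2 and CACNB3. Of the 85 left out, 84 were below log2 4 on every array and KCNN3 was at or above it on 1 array (4.01). The highest value of these 85 genes on any array had a median of 2.35, and 79 were below 3 on every array. All 9 sodium channel pore subunits, both sodium channel beta subunits, all 12 inward rectifiers and all 9 2-pore-domain channels were among them. The deposited values come without detection calls, so a value below log2 4 does not show that a gene was silent.

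**Figure D1:**
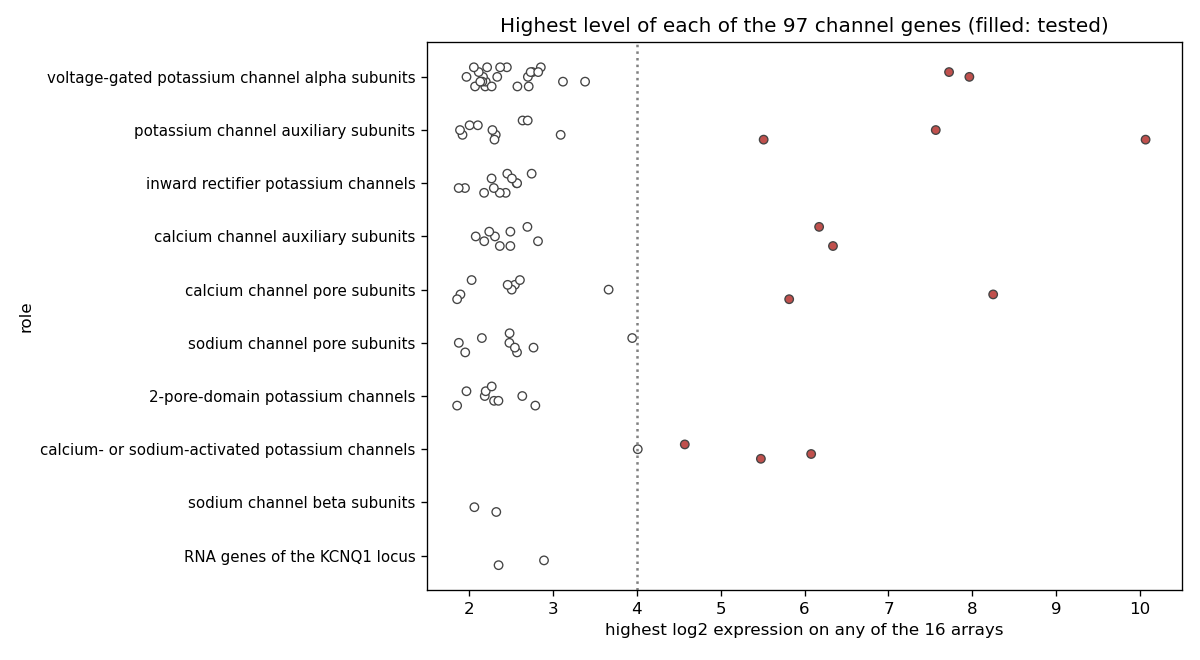
Highest log2 expression on any of the 16 arrays (x axis) for each of the 97 channel genes, grouped by role (y axis, points spread vertically for legibility). The 12 filled points are the tested genes, and 84 of the others lie left of the dotted line at log2 4.

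At 18 h against 0 h, 5 of the 12 tested genes passed a limma adjusted p of 0.05 (3 higher, 2 lower), where 29.4% of all 7304 tested genes did (14.8% higher, 14.7% lower). The count was 8 at 36 h (4 higher, 4 lower, against 65.3% of all genes, 33.2% higher and 32.1% lower), 7 at 53 h (3 and 4, against 66.3%, 31.8% and 34.5%) and 6 at 72 h (2 and 4, against 68.5%, 29.3% and 39.2%). At 96 h it was 9 (4 higher, 5 lower), against 60.8% of all genes, 25.1% higher and 35.7% lower. Between treated times, 8 of the 12 differed at 96 h against 18 h (3 higher, 5 lower, against 49.4%, 19.5% and 30.0%) and 5 at 96 h against 72 h (2 higher, 3 lower, against 27.2%, 17.1% and 10.1%). A moderated F test over the time course called 10 of 12, against 84.0% of all genes. The median log2 change of the 12 at the successive times against 0 h was -0.08, 0.14, 0.07, 0.06 and -0.17, beside 0.02, 0.02, -0.01, -0.11 and -0.10 for all tested genes. The median size of the change, regardless of sign, was 0.553, 0.975, 0.768, 0.631 and 1.45 for the 12, and 0.237, 0.527, 0.593, 0.658 and 0.503 for all genes. KCNN1 and CACNB2 passed the filter on low values only through the arrays at 0 h, and KCNMA1 and KCNN4 only through those at 96 h, so these 4 had to differ. KCNMB4 and CACNA1A were below log2 4 on all 4 arrays at 0 h. They passed the filter only through treated arrays, which favours a rise against 0 h. The counts and medians therefore support nothing about the family. All comparisons against 0 h share the same 4 control arrays. Without replicate 1 at 18 h, the count at 18 h was 3.

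**Figure D2:**
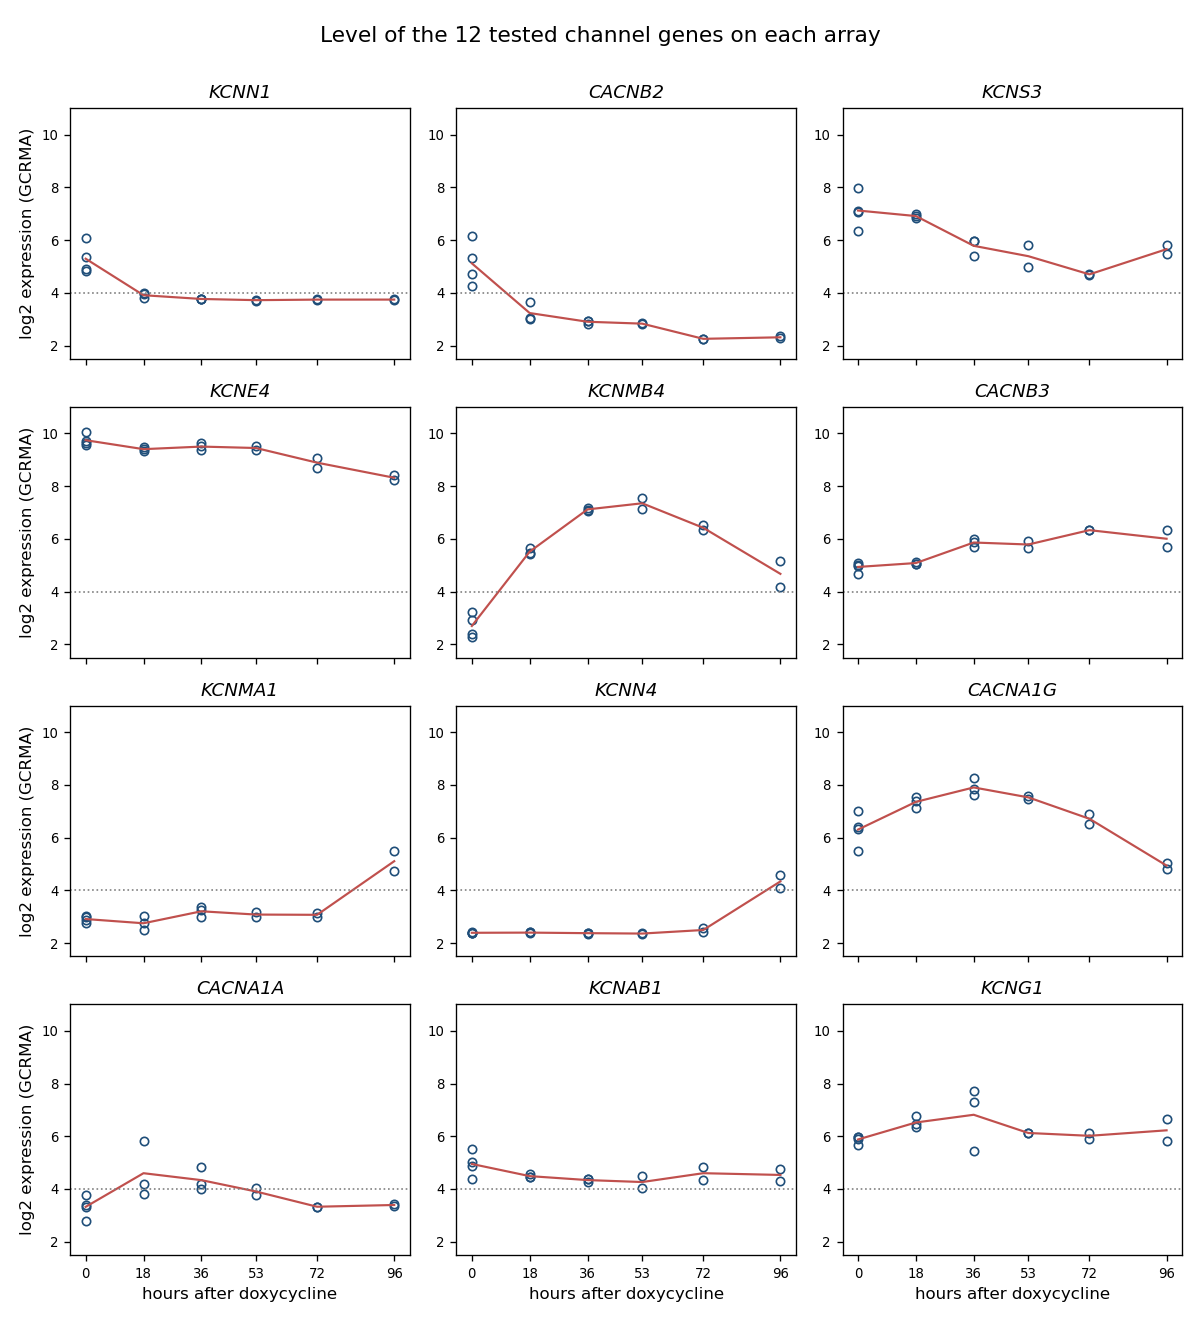
Log2 expression (y axis) against hours after doxycycline (x axis) for the 12 tested genes. Each circle is 1 array, the line joins group means and the dotted line is log2 4. KCNN1 and CACNB2 drop below that line from 18 h on, KCNMB4 peaks at 53 h, and KCNMA1 and KCNN4 exceed it at 96 h alone.

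To show the sequence context of members that moved together, the 250 bases before an annotated start are printed for genes that fell at all 5 times (KCNN1, CACNB2) and for those that rose at 96 h and have a window (KCNMA1, KCNN4, CACNB3), with CACNA1A, the only tested member whose windows hold a tandem GGAAGGAA. Sequences are RefSeq's for build GRCh38.p14, which had 116 windows for 74 of the 97 genes and 20 windows for 8 of the 12 tested genes. Where a gene has several windows, the one with the most motif matches is printed. Capitals mark GGAA, the core bound by ETS factors, on either strand (TTCC on the printed one), except in KCNMA1, where they mark TGACTCA, a motif of AP-1 factors, on either strand.
KCNN1, chr19:17966857-17967106, plus strand: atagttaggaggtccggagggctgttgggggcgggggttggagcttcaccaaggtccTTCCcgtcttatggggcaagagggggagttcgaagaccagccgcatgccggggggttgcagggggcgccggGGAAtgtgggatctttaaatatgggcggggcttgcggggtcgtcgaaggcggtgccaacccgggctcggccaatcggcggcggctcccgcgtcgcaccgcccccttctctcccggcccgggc
CACNB2, chr10:18140174-18140423, plus strand: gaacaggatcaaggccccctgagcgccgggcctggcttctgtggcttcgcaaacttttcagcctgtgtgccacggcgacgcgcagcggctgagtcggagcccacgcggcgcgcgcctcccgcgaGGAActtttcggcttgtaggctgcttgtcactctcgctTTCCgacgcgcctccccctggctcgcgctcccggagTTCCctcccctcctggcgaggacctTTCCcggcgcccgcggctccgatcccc
CACNA1A, chr19:13506480-13506729, minus strand: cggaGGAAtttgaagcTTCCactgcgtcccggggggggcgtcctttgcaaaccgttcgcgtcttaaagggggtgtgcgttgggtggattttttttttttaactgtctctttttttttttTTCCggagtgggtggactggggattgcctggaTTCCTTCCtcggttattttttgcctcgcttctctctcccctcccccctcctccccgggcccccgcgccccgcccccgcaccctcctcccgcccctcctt
KCNN4, chr19:43780974-43781223, minus strand: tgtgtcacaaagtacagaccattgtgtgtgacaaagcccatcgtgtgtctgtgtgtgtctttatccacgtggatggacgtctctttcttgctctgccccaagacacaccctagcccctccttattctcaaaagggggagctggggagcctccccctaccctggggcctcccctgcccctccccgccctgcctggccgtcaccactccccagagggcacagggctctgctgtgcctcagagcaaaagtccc
CACNB3, chr12:48815324-48815573, plus strand: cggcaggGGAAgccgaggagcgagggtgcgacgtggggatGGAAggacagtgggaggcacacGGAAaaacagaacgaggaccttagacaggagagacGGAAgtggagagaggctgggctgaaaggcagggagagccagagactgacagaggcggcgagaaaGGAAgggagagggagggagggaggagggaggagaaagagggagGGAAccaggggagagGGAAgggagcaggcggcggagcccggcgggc
KCNMA1, chr10:77350762-77351011, minus strand: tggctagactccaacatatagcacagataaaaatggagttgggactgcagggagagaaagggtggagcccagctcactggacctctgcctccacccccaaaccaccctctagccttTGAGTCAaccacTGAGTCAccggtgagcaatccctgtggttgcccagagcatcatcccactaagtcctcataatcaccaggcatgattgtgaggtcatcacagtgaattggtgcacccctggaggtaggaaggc
GGAA matched 2 times in the KCNN1 window, 4 times in that of CACNB2, 5 times in that of CACNA1A, 7 times in that of CACNB3 and 0 times in that of KCNN4, and 92.7% of all 35116 windows hold it at least once. At least as many matches as for KCNN1, CACNB2, CACNA1A and CACNB3 were in 76.5%, 34.3%, 18.6% and 4.1% of all windows. The windows of KCNN1, CACNB2 and CACNB3 were picked from several for their matches, and the other windows of CACNB3 held 2 and 4. GGAAGGAA, whose matches also count as GGAA, was in 5 of the 116 channel gene windows (4.31%) and in 3.06% of all windows. TGACTCA was in 6 of the 116 (5.17%), in 1 of the 20 windows of tested channel genes (5%) and in 4.20% of all windows. It occurred 2 times in the printed KCNMA1 window, as it did at least in 0.182% of all windows. That window was picked for its matches, and the other window of KCNMA1 held 0. The motifs were chosen with results of these data known. A match describes letters only, and these data hold no binding or chromatin measurement.

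KCNN1 encodes an SK channel, a small-conductance potassium channel opened by calcium through bound calmodulin. It read 5.37, 4.91, 4.84 and 6.08 (log2) on the 4 arrays at 0 h, 3.98, 3.96 and 3.80 at 18 h, and between 3.71 and 3.78 on the 9 arrays from 36 h to 96 h. All 12 treated arrays were below all 4 controls, and from 36 h on the values hardly varied. The log2 change was -1.38 ± 0.23 at 18 h (SE, limma adjusted p = 0.000704) and -1.55 ± 0.26 by 96 h (adjusted p = 0.000167). With the treated values set to log2 4, KCNN1 was at least 2.46-fold lower at each of the 5 times. It has 1 probe set, and its values at the treated times were all below log2 4, too dim to be ordered. KCNN1 passed the filter only through the arrays at 0 h, so it had to differ and its p-values are no support. The window printed for KCNN1 lies before 1 of 2 annotated starts.

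KCNN3, another SK channel gene, was not tested. It read 2.17 to 2.19 at 0 h, 2.84, 3.07 and 4.01 at 36 h, 3.52 and 2.89 at 53 h, and 2.23 to 2.74 at 72 h and 96 h. Only 1 array reached log2 4, and the other values are too dim to be read as levels. KCNN3 was singled out after its values were seen.

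KCNN4 encodes the intermediate-conductance calcium-activated channel, best known from lymphocytes and red cells. It read between 2.35 and 2.56 on all 14 arrays up to 72 h, and 4.10 and 4.57 at 96 h. Only the 2 arrays at 96 h were above the others, and the earlier values were too dim to be ordered. The gene passed the filter only through these arrays, so it had to differ and its p-values are no support. KCNN4 was at least 1.26-fold higher at 96 h than at 0 h (limma adjusted p = 7.8e-08), and it was also higher at 96 h than at 72 h (adjusted p = 2.8e-06).

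KCNMA1 encodes the pore of the BK channel, a large-conductance potassium channel opened by voltage and calcium. It read 2.48 to 3.37 on the 14 arrays up to 72 h, and 5.48 and 4.73 at 96 h. As for KCNN4, the gain was seen on the last 2 arrays alone. KCNMA1 passed the filter only through these arrays, so it had to differ and its p-values are no support. KCNMA1 was at least 2.15-fold higher at 96 h than at 0 h (limma adjusted p = 1.1e-06) and than at 72 h (adjusted p = 3.3e-05). These bounds set the dimmer group to log2 4 and leave out the spread of the brighter group. The other 2 probe sets of KCNMA1 were below log2 4 on every array. TGACTCA matched 2 times in the window printed for KCNMA1, 0 times in the window of its other annotated start, and 0 times in that of KCNN4.

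KCNMB4 encodes the beta 4 subunit of the BK channel, which is abundant in brain and alters the calcium sensitivity and speed of the BK pore. At 0 h it read 3.22, 2.92, 2.38 and 2.27 (log2). It read 5.65, 5.46 and 5.44 at 18 h, 7.19, 7.07 and 7.10 at 36 h, 7.56 and 7.14 at 53 h, 6.33 and 6.51 at 72 h, and 4.18 and 5.17 at 96 h. Every treated array was above every control, with a peak at 53 h and an incomplete return by 96 h. With the controls set to log2 4, KCNMB4 was at least 2.86-fold higher at 18 h, 8.69-fold at 36 h, 10.2-fold at 53 h, 5.35-fold at 72 h and 1.59-fold at 96 h (limma adjusted p between 7.8e-09 and 4.4e-05). These p-values come from the values as deposited. KCNMB4 passed the filter only through treated arrays, where it was high, so its p-values against 0 h are no support. It was lower at 96 h than at 72 h by 1.75 ± 0.32 on the log2 scale (SE, adjusted p = 0.00132). Its change at 96 h against 18 h, -0.84 ± 0.29 (adjusted p = 0.0297), did not pass without replicate 1 or 2 at 18 h or replicate 1 at 96 h. At the times when KCNMB4 was highest, 36 h and 53 h, the probe set of the BK pore gene KCNMA1 was below log2 4 on all 5 arrays.

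KCNS3 encodes a modifier subunit that forms no channel alone and changes the gating of other potassium channel subunits when it assembles with them. It read 7.96, 7.06, 7.12 and 6.36 at 0 h and 6.999, 6.907 and 6.844 at 18 h. It then read 5.40, 5.99 and 5.97 at 36 h, 5.82 and 4.97 at 53 h, 4.73 and 4.68 at 72 h, and 5.83 and 5.49 at 96 h. The arrays at 18 h lay within the range of the controls, and all 9 later arrays lay below it. KCNS3 had a log2 change of -0.21 ± 0.30 at 18 h (limma adjusted p = 0.654). It fell by 1.34 ± 0.30 to 36 h (adjusted p = 0.0015) and by 2.42 ± 0.34, or 5.36-fold, at 72 h (adjusted p = 2.6e-05). It was still lower by 1.47 ± 0.34 at 96 h (adjusted p = 0.00222). The difference of 0.96 ± 0.40 between 96 h and 72 h did not pass (adjusted p = 0.0918), and did with the replicate number as a block (adjusted p = 0.0445). It also passed with array weights, in a fit of these 2 groups alone, and without replicate 1 or 4 at 0 h. The change at 96 h against 18 h, -1.26 ± 0.36 (adjusted p = 0.011), was lost without replicate 2 at 96 h.

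KCNE4 encodes a single-pass accessory protein that inhibits KCNQ1 and some other potassium channels. It read 10.07, 9.56, 9.63 and 9.71 at 0 h, 9.32 to 9.63 on the 8 arrays from 18 h to 53 h, 8.70 and 9.08 at 72 h, and 8.23 and 8.41 at 96 h. All arrays at 18 h, 53 h, 72 h and 96 h were below the lowest control, and 1 of 3 at 36 h lay above it, while only the changes at 72 h and 96 h passed. The log2 change was -0.34 ± 0.13 at 18 h (limma adjusted p = 0.0589), -0.85 ± 0.14 at 72 h (adjusted p = 0.000123) and -1.42 ± 0.14 by 96 h (adjusted p = 2.2e-06), a 2.68-fold lower level. With arrays centred on their median, the changes at 18 h, 36 h and 53 h passed as well (-0.37, -0.36 and -0.44, adjusted p between 0.0119 and 0.0377), and that at 18 h also passed with array weights and without replicate 2 at 0 h. KCNE4 was lower at 96 h than at 72 h (-0.57 ± 0.17, adjusted p = 0.0208), which did not pass without replicate 2 at 72 h or replicate 1 at 96 h. The other 3 KCNE genes among the 97 were below log2 4 on every array.

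KCNAB1 encodes a cytoplasmic beta subunit of Shaker-type potassium channels that can speed their inactivation. It read 5.51, 4.38, 5.03 and 4.86 at 0 h and 4.04 to 4.85 on the 12 treated arrays, so that controls and treated arrays overlapped at every time. Its changes of -0.61 ± 0.23 at 36 h (SE, limma adjusted p = 0.029) and -0.69 ± 0.26 by 53 h (adjusted p = 0.0303) passed narrowly. Neither passed without replicate 1 or 3 at 0 h. The call at 36 h was also lost without any 1 of the 3 arrays at 36 h, and the call at 53 h without replicate 2 at 53 h. Both calls were further lost with all probe sets of the gene averaged and in a fit of the 2 groups alone, and that at 53 h with array weights. The F test over the time course did not call KCNAB1 (adjusted p = 0.135), and the other 3 of its 4 probe sets were below log2 4 throughout.

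KCNG1, a further modifier subunit, passed at no time in the main fit. It read 5.66 to 5.98 at 0 h, 6.33 to 6.75 at 18 h, 5.43, 7.72 and 7.29 at 36 h, and 5.81 to 6.64 on the 6 later arrays. Replicate 1 at 36 h was the lowest of all 16 arrays and the other two of that time the highest. The log2 change at 36 h was 0.94 ± 0.40 (limma adjusted p = 0.0528), and 1.63 without replicate 1 at 36 h, where it passed. It also passed on all arrays with array weights and with the stricter filter of log2 6 on at least 2 arrays. The 3 arrays at 18 h were above all controls, and the change of 0.64 ± 0.40 (adjusted p = 0.248) passed without replicate 1 at 36 h (adjusted p = 0.0193), with array weights and in a fit of these 2 groups alone. KCNG1 was described after its values were seen.

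**Figure D3:**
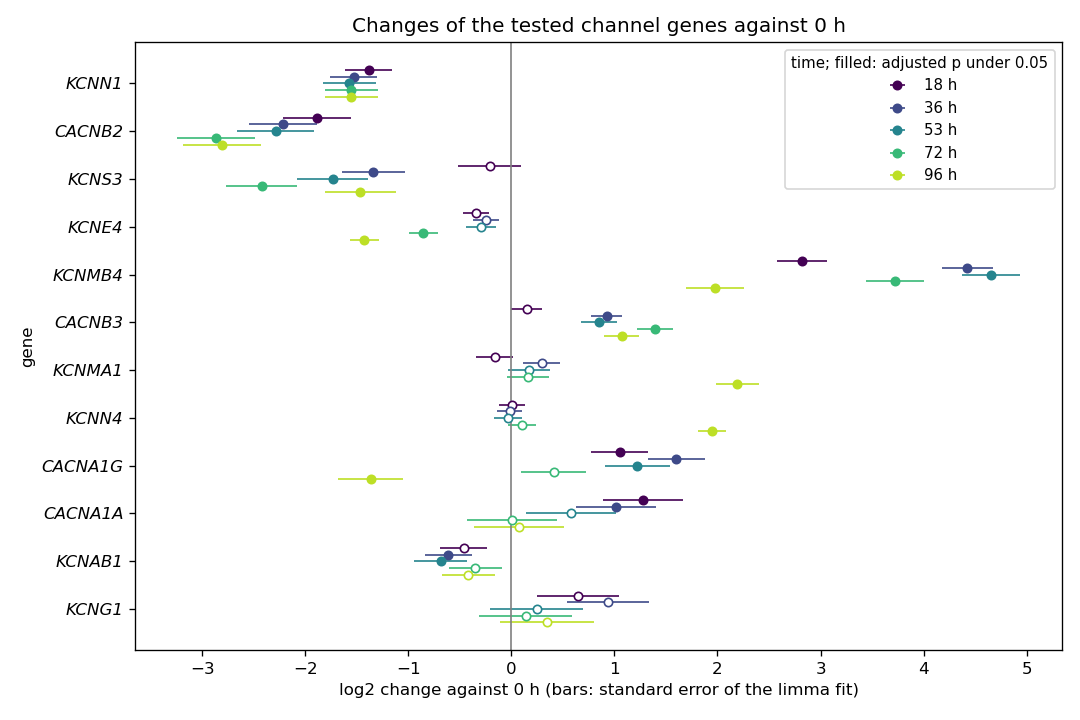
Log2 change against 0 h (x axis) of the 12 tested genes (y axis) at 5 times, with bars for the standard error of the limma fit and filled points for an adjusted p under 0.05. CACNA1G lies right of 0 at 18 h to 53 h (up to 1.60) and left of it at 96 h (-1.37), and values of genes below log2 4 in a group are compressed.

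CACNA1G encodes the pore of a T-type calcium channel, which opens at weak depolarisation. It rose first and fell later. It read 7.03, 6.32, 6.38 and 5.48 at 0 h, 7.56, 7.11 and 7.39 at 18 h, 8.25, 7.60 and 7.85 at 36 h, 7.47 and 7.58 at 53 h, 6.90 and 6.52 at 72 h, and 5.05 and 4.83 at 96 h. All 8 arrays from 18 h to 53 h were above the controls, those at 72 h overlapped them, and those at 96 h were below. The log2 change was 1.05 ± 0.28 at 18 h (limma adjusted p = 0.0122), 1.60 ± 0.28 or 3.03-fold at 36 h (adjusted p = 0.000179), 1.22 ± 0.31 at 53 h (adjusted p = 0.00361), 0.41 ± 0.31 at 72 h (adjusted p = 0.26) and -1.37 ± 0.31 by 96 h (adjusted p = 0.00194). CACNA1G was 3.42-fold lower at 96 h than at 72 h (-1.78 ± 0.36, adjusted p = 0.00264). The change at 72 h was 0.65 when replicate 1 at 0 h was left out, and then passed (adjusted p = 0.0443). The call at 18 h was lost without replicate 1 at 18 h (0.95, adjusted p = 0.055), with replicates 2 and 3 averaged and in a fit of these 2 groups alone. A second bright probe set of the gene changed by 1.93 at 36 h and by -1.002 at 96 h, and another, at most 5.59, by 0.08 and -0.04. The other 2 were below log2 4 throughout.

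CACNA1A encodes the pore of P/Q-type calcium channels, which trigger transmitter release at synapses. It read 3.77, 2.78, 3.33 and 3.41 at 0 h, 5.82, 3.80 and 4.18 at 18 h, 4.82, 4.19 and 4.00 at 36 h, 3.78 and 4.03 at 53 h, and 3.33 to 3.44 at 72 h and 96 h. The highest value came from replicate 1 at 18 h. CACNA1A was at least 1.51-fold higher at 18 h (limma adjusted p = 0.0239) and at least 1.26-fold at 36 h (adjusted p = 0.0328). When replicate 1 at 18 h was left out, its log2 change at 18 h was 0.67 in place of 1.28 and did not pass (adjusted p = 0.0984), and it did not pass either without replicate 2 at 0 h. The call at 36 h was lost without replicate 2 or 3 at 0 h or replicate 1 or 2 at 36 h. Both calls were also lost with values below log2 4 set to 4, so the bounds above carry no p-value of their own. CACNA1A passed the filter only through treated arrays, so its p-values against 0 h are no support. That at 18 h was further lost in a fit of the 2 groups alone. That at 36 h was further lost with all probe sets of the gene averaged and with replicates 2 and 3 averaged. The decline of CACNA1A at 96 h against 18 h (adjusted p = 0.0437) was lost in 10 of 16 omissions of 1 array. The other 2 of its 3 probe sets were below log2 4 on every array. The window printed for CACNA1A is its single annotated one in the table.

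The beta subunits of high-voltage-activated calcium channels, cytoplasmic proteins that carry the pore to the membrane, moved in opposite directions. CACNB2 read 6.17, 5.33, 4.71 and 4.27 at 0 h, 3.65, 3.01 and 3.06 at 18 h, 2.82 to 2.95 at 36 h and 53 h, and 2.25 to 2.35 at 72 h and 96 h. Every treated array was below every control and below log2 4. CACNB2 was at least 2.18-fold lower at each of the 5 times (limma adjusted p between 1.3e-05 and 0.00111). It passed the filter only through the arrays at 0 h, so it had to differ and these p-values are no support. A second probe set of CACNB2, at most 4.78, changed by -1.38 at 18 h and -1.57 at 96 h, and the last was below log2 4 throughout.

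CACNB3 read 4.68, 5.09, 4.96 and 5.02 at 0 h, 5.06, 5.13 and 5.06 at 18 h, 5.69, 5.99 and 5.90 at 36 h, 5.67 and 5.91 at 53 h, 6.32 and 6.34 at 72 h, and 5.69 and 6.32 at 96 h. The arrays at 18 h overlapped the controls and the 9 later arrays were above them. CACNB3 had a log2 change of 0.15 ± 0.15 at 18 h (limma adjusted p = 0.501), rose by 0.93 ± 0.15 at 36 h (adjusted p = 0.000111) and by 1.40 ± 0.17, or 2.63-fold, at 72 h (adjusted p = 7.1e-06), and was higher by 1.07 ± 0.17 at 96 h (adjusted p = 0.000128). Its other probe set changed by 0.75 at 36 h and 1.07 at 96 h. Of the 4 calcium channel genes tested, 2 encode pores and 2 beta subunits, and the other 8 pore genes, the 3 alpha-2-delta genes, CACNB1 and the 5 gamma genes were below log2 4 on every array.

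The 4 control arrays differed in several of these genes. The median range over the 4 arrays at 0 h was 0.97 (log2) for the 12 tested channel genes and 0.33 for all 7304 tested genes, a difference that was not tested. KCNN4, KCNMA1 and KCNG1 had ranges below the median of all genes (0.037, 0.23 and 0.32), and CACNB2 (1.90) and KCNN1 (1.24) passed the filter only through these arrays. For CACNA1G, CACNB2, KCNMB4 and KCNS3, replicate 1 was the highest and replicate 4 the lowest of the 4, an order that 18.4% of all tested genes shared. The excess of the 3' over the 5' probe set of ACTB was 2.06 in replicate 1 and 1.47 in replicate 4, and its part in these differences was not tested. The changes of these 4 genes against 0 h kept their sign when either array was left out, other than that of KCNS3 at 18 h, which was not called.

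Genes that work beside these channels were read from 3 lists. On the list of other channels, 15 genes were tested. They encode members of the CLC family of chloride channels and exchangers, TRP, polycystin and intracellular calcium channels, and the VDAC porins of mitochondria. Of these 15, 7 rose and 3 fell at 96 h (TRPM4, VDAC1 and VDAC3), with a median log2 change of 0.27. Over all tested genes 25.1% rose and 35.7% fell at that time, with a median of -0.10. VDAC1 and VDAC3 were named after their values were seen. ITPR1, a receptor that releases calcium from the endoplasmic reticulum, rose by 2.22 ± 0.34 (SE), and TRPM4, a cation channel opened by calcium, fell by 2.30 ± 0.18. TRPC1, a cation channel subunit, had a log2 change of 1.99 ± 0.21 from a level of 2.96 at 0 h, near background. Of 15 tested channel partners and anchors, 4 rose and 4 fell (median 0.08). GEM, a small GTPase that binds calcium channel beta subunits and inhibits the channels, rose by 4.23 ± 0.24. DLG2, a scaffold that anchors Shaker-type potassium channels, changed by -4.92 ± 0.24, its level at 96 h being 3.75. RCOR1, a corepressor of the neuronal gene silencer REST, fell by 2.42 ± 0.12. Of 10 tested ion pumps and exchangers, 4 rose and 2 fell (median 0.04). SLC24A3, a sodium/calcium-potassium exchanger, fell by 2.21 ± 0.16, its relative SLC24A1 rose by 0.87 ± 0.16, and ATP2B1, a calcium pump of the plasma membrane, rose by 1.12 ± 0.18. Limma adjusted p was at most 0.000372 for the 9 genes given with an SE, which are the 3 of each list with the smallest value.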

How the data were processed

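The deposited values are log2 expression levels, 1 per probe set and array. The authors made them with GCRMA, according to the submitters' processing notes, a method that subtracts a sequence-dependent background and then normalizes the arrays. Its version and settings, and joint or separate processing, were not given in the sources used here. The log2 scale was read from the values, and GCRMA compresses dim ones. Of 22277 probe sets, 19070 had 1 gene symbol in the platform annotation and 1043 had several.

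Per gene, the probe set with the highest mean was kept, and genes reaching log2 4 on 2 or more arrays were tested (7304 tested, 4659 left out). Limma 3.58.1 in R 4.3.3, with data.table (version 1.17.8), fitted 1 mean per time over 16 arrays (lmFit; eBayes with trend; residual degrees of freedom: 10). Benjamini-Hochberg adjustment ran over all tested genes within each of 7 comparisons, with a threshold of 0.05. The model was tested on simulated data. Figures used Python 3.11.15 and matplotlib 3.10.9.

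Lower bounds set the brighter group's mean against log2 4 and were given where every probe set of the gene was below log2 4 on each array of the dimmer group. Named were, among members past the threshold, the 10 highest and 10 lowest log2 changes at 96 h against 0 h and the 4 and 4 in each other comparison, FLI1, and the 3 genes with the smallest adjusted p at 96 h of each related list; others are said to be chosen later. KCNG1, VDAC1, VDAC3 and the untested genes fall outside that rule. The members and lists were chosen with earlier results of these data known. Equal replicate numbers were treated as pairs among 0 h, 18 h and 36 h, since deviations from group means correlated above 0.1 for every pair of the same number (0.508 to 0.632 for 0 h with 18 h, 0.214 to 0.304 for 0 h with 36 h, 0.244 to 0.366 for 18 h with 36 h). Arrays numbered 2 and 3 correlated across numbers as well (0 h with 18 h: 0.467 and 0.550), so the values set number 1 apart from 2 and 3 and do not tell 2 from 3, which were therefore also averaged as an alternative. For pairs of the same number with an array at 53 h, 72 h or 96 h, the correlations lay between -0.207 and 0.248. The labels state no pairing, so the main fit used none and the block was an alternative.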

Additional observations from a re-analysis of the deposited data

Results flagged for a closer look

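CACNA1G, the T-type calcium channel gene, was picked out because its change against 0 h was in opposite directions at early and late times. It was higher at 18 h, 36 h and 53 h and lower at 96 h, each past the threshold. The call at 18 h was lost without replicate 1 at 18 h and in some alternatives. The change at 96 h less that at 18 h was -2.42 ± 0.33 on the log2 scale (SE), which is the comparison of these times itself (limma adjusted p = 5.7e-05). Both arrays at 96 h were below all 3 at 18 h. Both comparisons with 0 h share the same control arrays, and the 4 controls spanned 5.48 to 7.03.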

How the results depend on the processing

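Of 48 calls of channel genes in the 7 comparisons, 39 held under all alternatives and omissions of 1 array that could be computed, 9 were lost under at least 1 of these, and 0 changed direction. Among those that held were all calls of KCNN1, CACNB2, KCNMA1 and KCNN4. These genes passed the filter only through the group where they were high, so that their calls held is no support. The calls of KCNMB4 against 0 h held as well. KCNMB4 passed the filter only through treated arrays, so this is no support either. Counts moved most with the filter. Without it, when all 97 genes were tested, the count was 37 for 36 h, 28 for 53 h, 38 for 72 h, 33 for 96 h, 24 for 96 h against 18 h and 46 over the time course. With at least log2 6 on 2 arrays, which kept 6 channel genes, the counts were 2 for 18 h, 5 for 36 h, 4 for 53 h, 5 for 96 h, 5 for 96 h against 18 h, 3 for 96 h against 72 h and 5 over the time course. With _x_at and _s_at probe sets removed, which kept 9, 3 passed at 96 h against 72 h. Leaving out 1 array gave 3 to 6 calls for 18 h, 6 to 8 for 36 h, 6 to 7 for 53 h, 6 to 7 for 72 h, 9 to 10 for 96 h, 6 to 9 for 96 h against 18 h, 4 to 6 at 96 h against 72 h and 9 to 10 over the time course. With the replicate block, 9 passed at 96 h against 18 h (8 without it) and 6 at 96 h against 72 h (5 without it), and the counts of the other comparisons were equal. Centring arrays on their median moved the median change of all genes at 96 h from -0.10 to -0.29. The F test could not be run on 2 groups alone. Signal near background limits the dim genes, and few arrays limit precision.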

Other observations

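Of the 85 channel genes below the filter, 29 passed for 36 h, 21 for 53 h, 32 for 72 h and 24 for 96 h against 0 h when no filter was used, and 0 at 18 h (limma adjusted p). Of these, 26, 20, 32 and 23 were lower. Among all 4659 genes below the filter, 37.7%, 20.6%, 36.0% and 30.2% passed at these times (34.9%, 18.4%, 32.8% and 27.7% lower) and 0.987% at 18 h, so that the channel genes' counts were near this background. The median size of these called changes was 0.03, 0.045, 0.036 and 0.04 on the log2 scale. Among these 85 genes, only KCNN3 had a log2 change over 0.5 against 0 h, at 36 h (1.13) and 53 h (1.02), from values mostly below log2 4.

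KCNMB1, the beta 1 subunit of the BK channel, known from smooth muscle, was below log2 4 on every array. Without the filter its log2 change at 96 h was 0.39 (limma adjusted p = 0.0390), which rests on replicate 2 at 96 h alone: it read 2.70 there and 1.90 to 1.93 on the other 15 arrays. KCNMB1 was singled out after its values were seen. The probe sets annotated to 2 symbols, which the rule leaves out, were 1 for GALNT8 and KCNA6 and 2 for KCNJ18 and KCNJ12, reading at most 2.31, 3.15 and 4.43.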
